A study of Mus musculus with 6 samples.

Results

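Interferon-stimulated and nucleic acid sensing genes were examined in RNA-seq libraries of Hepa1-6 cells, a mouse hepatoma cell line derived from the C57/L strain. The set was a list of 44 genes named by symbol, chosen with earlier results of these data known, and 43 of the 44 had a row under that symbol among the 25078 genes of the deposited tables. The exception was Mb21d1, which the RefSeq table lists as a synonym of Cgas. The Cgas row held 4 counts in wt, 10 and 1 in the scr libraries and 1, 3 and 3 in the knockdown libraries. Of the 43 members, 35 reached an RPKM (reads scaled to exon length and library size) over 1 in at least 1 library and were tested, out of 11647 genes that did so.

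The 6 libraries came from 3 groups of the same line grown in the same medium. The wt group was 1 library of untreated parental cells. The scr group was 2 libraries, 25-2 and 50-1, of cells that had received a lentiviral scramble vector. The knockdown group was 3 libraries, 25-3, 50-2 and 50-5, of cells that had received a lentiviral vector with an shRNA (short hairpin RNA) against midnolin (Midn). Both transduced groups had been selected with puromycin and expanded from single cells by limiting dilution, so wt differs from scr in vector, selection and cloning together, and these cannot be told apart. Likewise the knockdown cannot be told apart from differences between the expanded colonies, and the labels do not say which colony each library came from or what 25 and 50 stand for. The p-values below therefore measure the spread between these libraries. In bulk RNA, fewer cells expressing a gene and less RNA per cell cannot be told apart. Below, scr values are given in the order 25-2, 50-1 and knockdown values in the order 25-3, 50-2, 50-5.

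Total counts lay between 25586301 and 33119710 per library. Midn, the targeted gene, measured 60.5 RPKM in wt, 59.6 and 50.8 in scr, and 20.3, 21.8 and 22.1 in knockdown, a log2 fold change of −1.38 ± 0.132 (SE, n = 3 against 2, FDR = 0.00805 with edgeR's quasi-likelihood test). All 3 knockdown libraries lay below every other library, as their labels say. The 11 hepatocyte and hepatoma markers fixed for this work were all over 1 RPKM in at least 1 library. Their summed RPKM was 5950 in wt, 3402 to 4661 in scr and 936 to 1953 in knockdown, with 0 of 11 called. The summed RPKM of 13 immune cell markers was 4.53 in wt, 4.56 to 5.25 in scr and 9.26 to 14.3 in knockdown, with 2 of 13 tested (Cd68 and Csf1r), 0 called, and the T cell marker Cd3e and the lymphocyte granule marker Nkg7 at 0 in all 6 libraries. Endothelial markers (3 genes) summed to 2.88 RPKM in wt, 0.158 to 0.163 in scr and 0.141 to 0.358 in knockdown, and stellate cell and fibroblast markers (4 genes) to 1.66, 0.0512 to 0.880 and 0.358 to 0.428 RPKM. The part of these markers in the results below was not tested.

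Interferons are secreted proteins that cells release when they sense viral or misplaced nucleic acid. Type I and type III interferons signal through the kinases JAK1 and TYK2 to a transcription factor complex that includes STAT2 and IRF9 and binds the interferon-stimulated response element (ISRE). Type II interferon acts on genes that carry the gamma-activated site (GAS). The genes so induced encode sensors of RNA and DNA, effectors that block viral replication, and regulators that raise or damp the response. Liver cells both sense virus and answer interferon in this way.

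Most members were lower in knockdown than in scr, but the spread between the scr libraries was wide and most did not pass the test with edgeR. A gene was called where the FDR was below 0.05 and the change was 1.5-fold or more in either direction. On this rule 6 of the 35 tested members fell (Oas1b, Mx1, Cmpk2, Tmem173, Dtx3l and Ifi27) and 1 rose (Oasl1). This is 17.1% falling and 2.86% rising, beside 5.25% falling and 5.33% rising among all 11647 genes tested, and 20.0% called in either direction beside 10.6%. DESeq2 called 20 of the 35, 18 lower and 2 higher, and 2308 of all genes. In 22 members (62.9%) all 3 knockdown libraries lay below both scr libraries, beside 24.5% of all genes tested. In 3 members (8.57%; Oasl1, Samhd1 and Ifih1) all 3 lay above both, beside 25.6%. The other 10 overlapped. Of the 35, 7 (Dhx58, Isg15, Mx2, Oas1b, Oas1g, Rsad2 and Rtp4) exceeded 1 RPKM only in scr, 4 (Gbp2, Gbp3, Mx1 and Xaf1) only in scr and wt, and Oasl1 only in knockdown, so these entered through the group in which they were high. Among the 23 members over 1 RPKM in a library of every group, 12 (52.2%) lay below both scr libraries, beside 24.3% of the 10371 such genes, 4 fell (17.4%, beside 4.87%) and 0 rose with edgeR (3.76% of such genes), at a median log2 fold change of −0.52. The median log2 fold change was −0.96 over the 35 members and −0.0092 over all genes tested, and 27 members had a fitted value below 0. Counts of calls depended on single libraries, with 7 called by edgeR from all 6 libraries, 18 without scr 25-2, 8 without scr 50-1, 1 without knockdown 25-3, 0 without knockdown 50-2 and 4 without knockdown 50-5. Calls over all genes moved with them, from 1233 to 2271 without scr 25-2, 1274 without scr 50-1 and between 118 and 335 without 1 knockdown library. Where 1 library is left in a group, the test assumes that it varies as the others do. The median over members was −1.16 without scr 25-2 and −0.61 without scr 50-1.

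**Figure D1:**
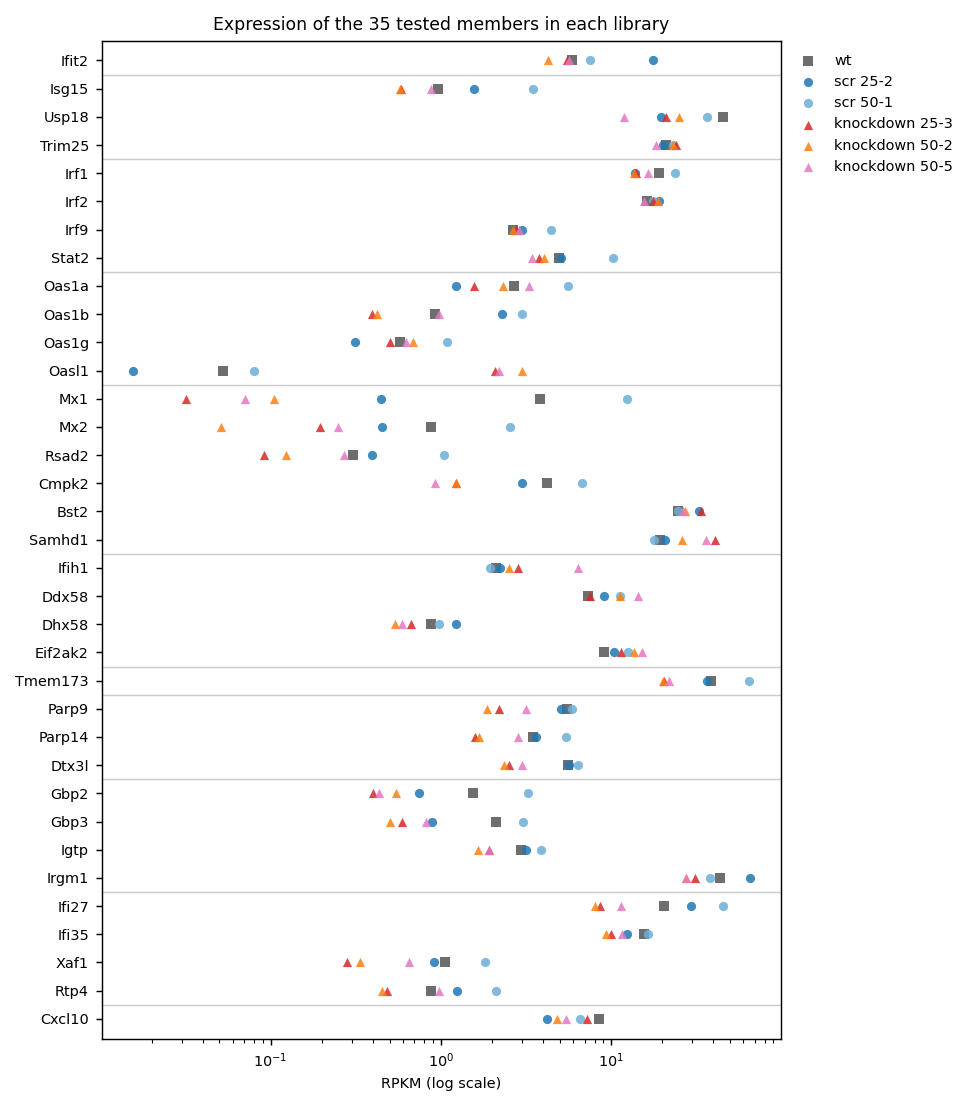
RPKM (horizontal log axis) of each of the 35 tested members (rows, grouped by role) in each of the 6 libraries; squares are wt, circles scr and triangles knockdown. In 22 rows all 3 triangles lie to the left of both circles, and in the rows of Oasl1, Samhd1 and Ifih1 they lie to the right.

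The plot of RPKM by library shows the members' levels running from under 0.1 RPKM for Mx1 and Oasl1 in some libraries to over 60 RPKM for Irgm1 and Tmem173 in an scr library. The 8 members that did not reach the test were Ifit1, Ifit3, Irf7, Oas2, Oas3, Oasl2, Zbp1 and Ifi44. The highest of them were Ifit1 at 0.876 RPKM in scr 25-2 and Irf7, a transcription factor that amplifies interferon production, at 0.516 to 0.743 RPKM across the 6 libraries.

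The 2 scr libraries were themselves apart in these genes. Between them, 11 of the 35 members (31.4%) differed by at least 2-fold on RPKM + 0.1, beside 12.8% of all genes tested. Over the 23 members above 1 RPKM in a library of every group it was 4 (17.4%; Cmpk2, Ifit2, Oas1a and Stat2), beside 9.61% of such genes. Of the 11, 10 were higher in scr 50-1 and 1, Ifit2, was higher in scr 25-2. The median log2 difference of scr 50-1 from scr 25-2 was 0.63 over the members and 0.013 over all genes. It was 0.32 over the 23 members above 1 RPKM in a library of every group and 0.016 over all such genes. Knockdown libraries were closer to one another, with a median absolute log2 difference over the members of 0.189 between 25-3 and 50-2, 0.374 between 25-3 and 50-5 and 0.353 between 50-2 and 50-5, against 0.641 between the scr libraries. Over all genes tested the knockdown libraries were likewise the closer ones, at 0.173, 0.221 and 0.202 in the same order against 0.323 between the scr libraries.

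The promoters of these genes carry the response element more often than promoters at large. RefSeq promoter sequences on GRCm38.p6, the build mm10, were matched for 32 of the 44 members, from 250 bases before to 50 bases after the annotated start. The other 12 were Dhx58, Ifi27, Mx1, Mx2, Oas1b, Oas2, Parp14, Parp9, Rtp4, Tmem173, Usp18 and Zbp1. An ISRE was searched for as GAAA and GAAA with any 2 bases between them, and a GAS as TTCNNNGAA, on both strands and with overlapping matches allowed. ISRE matches were found for 18 of the 32 members (56.3%) and for 3.99% of 27025 genes with a promoter. GAS matches were found for 9 of the 32 (28.1%) and for 9.55% of those genes. Of the 25 tested members with a promoter, the 15 with an ISRE match had 0 calls by edgeR, 7 by DESeq2 and a median log2 fold change of −0.52. The 10 without one had 3 calls by edgeR (Cmpk2 and Dtx3l lower, Oasl1 higher), 6 by DESeq2 and a median of −0.46. Among all 11647 genes tested, edgeR called 10.6% and DESeq2 called 2308. Of the 7 called members, 4 (Ifi27, Mx1, Oas1b and Tmem173) had no promoter matched and are outside this split. A match of letters is a description and does not show that a factor binds.

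The 250 bases upstream of 4 members with an ISRE match are shown to make the element visible, on the strand of the gene and 5′ to 3′, with the matched bases in capitals. Isg15 has 3 overlapping matches between 78 and 57 bases before the start, Irgm1 has 2 overlapping ones between 30 and 15 bases before it, and Gbp2 and Rsad2 have 1 each.
Isg15 (chr4:156200819-156201068, minus strand): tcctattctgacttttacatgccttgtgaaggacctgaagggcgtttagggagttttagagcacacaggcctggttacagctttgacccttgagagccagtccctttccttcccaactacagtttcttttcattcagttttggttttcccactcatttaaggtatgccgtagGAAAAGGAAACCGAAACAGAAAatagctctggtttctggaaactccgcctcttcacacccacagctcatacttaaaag
Gbp2 (chr3:142620413-142620662, plus strand): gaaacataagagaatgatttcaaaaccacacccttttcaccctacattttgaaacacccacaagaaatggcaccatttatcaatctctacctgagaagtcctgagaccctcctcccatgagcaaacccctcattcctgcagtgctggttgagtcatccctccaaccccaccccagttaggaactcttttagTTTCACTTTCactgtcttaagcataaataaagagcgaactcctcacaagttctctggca
Irgm1 (chr11:48871421-48871670, minus strand): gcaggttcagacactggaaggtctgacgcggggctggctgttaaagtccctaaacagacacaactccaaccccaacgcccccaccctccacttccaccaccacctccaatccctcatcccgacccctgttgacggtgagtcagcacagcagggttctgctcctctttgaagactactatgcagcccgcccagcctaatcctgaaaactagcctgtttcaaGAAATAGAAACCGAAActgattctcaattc
Rsad2 (chr12:26456453-26456702, minus strand): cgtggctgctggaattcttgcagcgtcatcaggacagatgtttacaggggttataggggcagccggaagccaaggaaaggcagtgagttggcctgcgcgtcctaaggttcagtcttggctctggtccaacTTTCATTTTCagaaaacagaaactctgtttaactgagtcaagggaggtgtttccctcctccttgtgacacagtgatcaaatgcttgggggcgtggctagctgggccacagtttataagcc

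The same windows of 2 called members hold neither motif and are shown without capitals, Cmpk2 because it fell and is the neighbour of Rsad2, and Oasl1 because it was the member that rose.
Cmpk2 (chr12:26468965-26469214, plus strand): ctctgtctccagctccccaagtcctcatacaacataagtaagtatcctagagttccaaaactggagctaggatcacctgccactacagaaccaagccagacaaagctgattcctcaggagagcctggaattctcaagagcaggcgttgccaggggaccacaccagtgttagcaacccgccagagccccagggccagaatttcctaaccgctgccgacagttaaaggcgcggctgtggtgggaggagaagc
Oasl1 (chr5:114922990-114923239, plus strand): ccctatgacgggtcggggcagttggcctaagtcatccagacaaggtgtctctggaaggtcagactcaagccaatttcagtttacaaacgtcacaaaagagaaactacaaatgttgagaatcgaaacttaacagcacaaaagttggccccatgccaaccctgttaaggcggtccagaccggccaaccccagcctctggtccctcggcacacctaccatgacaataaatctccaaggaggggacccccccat

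**Figure D2:**
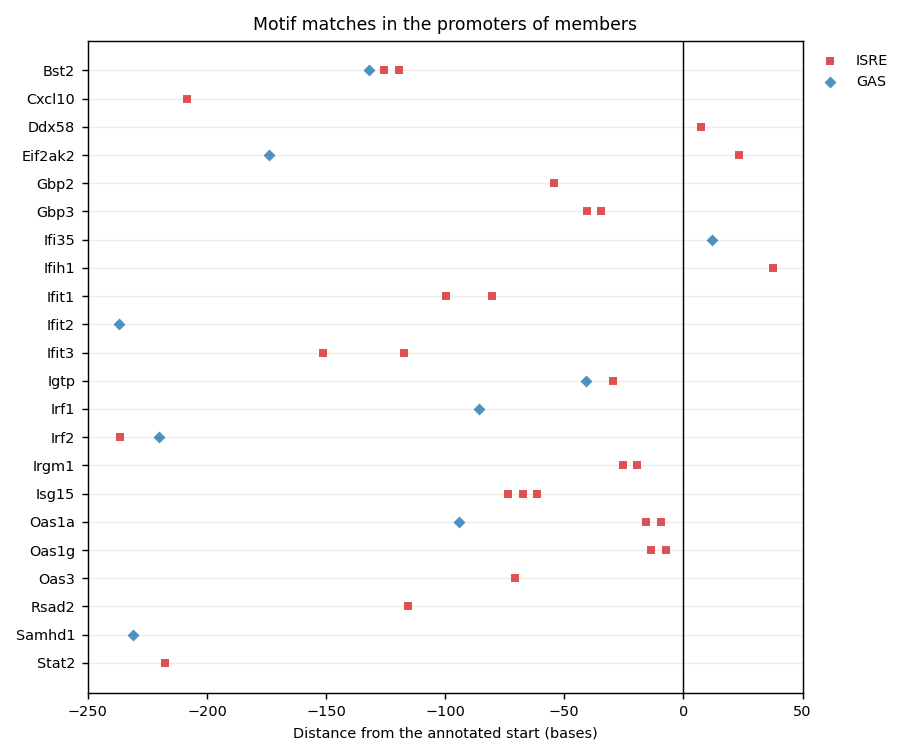
Distance in bases from the annotated start (horizontal axis) of each ISRE match (squares) and GAS match (diamonds) in the promoters of the members that hold one (rows). The matches of Isg15, Irgm1, Gbp2, Gbp3, Oas1a and Oas1g lie within 100 bases of the start.

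The OAS family makes the short oligoadenylates that activate the RNA-cutting enzyme RNase L, apart from the OAS-like proteins, several of which lack that activity. Oasl1, which is known to hold back translation of Irf7 mRNA, was the sole member that rose. It lies on chr5:114923240-114937911, and its reads numbered 3 in wt, 1 and 5 in scr, and 145, 213 and 159 in knockdown. Every knockdown library was far above the 3 others, with levels of 2.09, 3.00 and 2.18 RPKM beside at most 0.0797 RPKM. The log2 fold change was 5.61 ± 0.650 (SE, n = 3 against 2, FDR = 0.0107), and the ratio of summed counts per library size was 51.1 (95% interval 23.3 to 140, counting error only). Across the 16 alternative analyses described below, the log2 fold change ran from 1.70 to 7.12. The FDR was 0.0576 without knockdown 50-2 and under 0.05 with any other library left out.

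Oas1b, on chr5:120812635-120824160, moved the other way. Its level was 0.919 RPKM in wt, 2.29 and 2.98 in scr, and 0.396, 0.421 and 0.971 in knockdown. Knockdown lay below both scr libraries, while wt lay among the knockdown libraries. The log2 fold change was −2.15 ± 0.484 (SE, n = 3 against 2, FDR = 0.0478). This call was lost without scr 50-1 (FDR = 0.0863), knockdown 25-3 (FDR = 0.148) or knockdown 50-2 (FDR = 0.168), and it was also lost with a term for the label prefix 25 or 50 (FDR = 0.0613) and with wt joined to scr (FDR = 0.0727). RefSeq annotates Oas1b, like Mx1 and Mx2, as a transcribed pseudogene in the C57BL/6J genome. Oas1a and Oas1g, close copies whose reads may be shared, overlapped between the groups, with log2 fold changes of −0.52 ± 0.664 and −0.21 ± 0.562. Oas2, Oas3 and Oasl2 stayed under 1 RPKM, so of the 7 OAS members 4 were tested, 1 rose and 1 fell, beside 5.33% and 5.25% of all genes tested. Both called members entered through the group in which they were high, Oasl1 through knockdown and Oas1b through scr. Of the OAS members, Oas1a alone exceeded 1 RPKM in a library of every group, and it was not called.

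The largest fall was in Mx1, an effector that acts on the virus itself. Mx1, a dynamin-like GTPase that blocks incoming viral nucleoprotein, lies on chr16:97447035-97462906, with Mx2 beside it. Mx1 measured 3.80 RPKM in wt, 0.445 and 12.5 in scr, and 0.0319, 0.104 and 0.0711 in knockdown. All knockdown libraries lay below all 3 others, but the 2 scr libraries differed by 4.53 on the log2 scale, with wt between them. The log2 fold change was −6.52 ± 1.42 (SE, n = 3 against 2, FDR = 0.0442), from 39 and 1057 reads in scr and 3, 10 and 7 in knockdown. Without scr 50-1 it was −2.67 (FDR = 0.0408), and without any 1 knockdown library the FDR rose to between 0.139 and 0.155. With limma the FDR was 0.101 on log2(RPKM + 0.1) and 0.175 on log2(RPKM + 1). Mx2, a related GTPase, measured 0.870 RPKM in wt, 0.449 and 2.56 in scr, and 0.196, 0.0511 and 0.249 in knockdown. Its groups did not overlap, but its log2 fold change of −3.17 ± 0.903 did not pass (FDR = 0.0771). Mx2 exceeded 1 RPKM only in scr 50-1, so it was not tested without that library.

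Cmpk2, a mitochondrial nucleotide kinase, and Rsad2, which encodes viperin, are neighbours on chromosome 12 and form a pair in which CMPK2 supplies the nucleotide that viperin turns into a chain terminator of viral RNA. Cmpk2 measured 4.20 RPKM in wt, 3.00 and 6.76 in scr, and 1.22, 1.23 and 0.919 in knockdown. Knockdown was below all 3 other libraries, a log2 fold change of −2.13 ± 0.380 (SE, n = 3 against 2, FDR = 0.0280). The call was lost without any 1 knockdown library (FDR 0.0988 to 0.115), and without scr 50-1 the log2 fold change was −1.43 (FDR = 0.0375). Rsad2 measured 0.304 RPKM in wt, 0.395 and 1.05 in scr, and 0.0920, 0.123 and 0.271 in knockdown, the same order of groups at a lower level. With a log2 fold change of −2.15 ± 0.640 it did not pass (FDR = 0.0846). Of these neighbours, Rsad2 holds the ISRE match shown above and Cmpk2 holds none in its window.

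The remaining effectors, Samhd1 and Bst2, had fitted values above 0. Samhd1, which breaks down the deoxynucleotides that viruses need for DNA synthesis, measured 19.4 RPKM in wt, 20.7 and 18.005 in scr, and 40.9, 26.1 and 36.1 in knockdown. All knockdown values were above all others, with a log2 fold change of 0.82 ± 0.224 that did not pass (FDR = 0.0715). Bst2, which encodes tetherin and holds budding virions at the cell surface, measured 24.8 RPKM in wt, 32.96 and 24.8 in scr, and 33.8, 27.1 and 26.6 in knockdown. These values overlapped throughout, with a log2 fold change of 0.00065 ± 0.208 (FDR = 0.999), and its window holds 2 ISRE matches and 1 GAS match. Of these 6 effectors, Mx2 and Rsad2 exceeded 1 RPKM only in scr and Mx1 only in scr and wt. With edgeR 2 of the 6 fell (33.3%, beside 5.25% of all genes tested) and 4 did not pass. DESeq2 called 5, all but Bst2, with Samhd1 higher, and limma called 1. Over all 11647 genes tested DESeq2 called 2308 and limma 1149 to 1196.

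Among the sensing genes, Tmem173 fell, and 0 of the 4 tested RNA sensors passed with edgeR or DESeq2, while 1 of them, Dhx58, had an unadjusted p under 0.05 in edgeR, as did 31.4% of all genes tested. Tmem173 encodes STING, the endoplasmic reticulum protein that answers the DNA sensor cGAS. It was among the most abundant members, at 38.9 RPKM in wt, 36.7 and 64.7 in scr, and 20.4, 20.1 and 21.8 in knockdown. The knockdown libraries lay close together and below all 3 others. The log2 fold change was −1.30 ± 0.243 (SE, n = 3 against 2, FDR = 0.0312), or −0.83 without scr 50-1 (FDR = 0.0273), and the call was lost without any 1 knockdown library (FDR 0.0981 to 0.133). For the RNA sensors, Ifih1 (MDA5) measured 2.12 RPKM in wt, 2.24 and 1.93 in scr, and 2.85, 2.51 and 6.36 in knockdown, with knockdown 50-5 far above the others and a log2 fold change of 0.90 ± 0.459 (FDR = 0.243). Ddx58 (RIG-I) and Eif2ak2 (PKR, which halts translation on double-stranded RNA) overlapped between groups, with log2 fold changes of 0.11 ± 0.291 and 0.21 ± 0.177. Dhx58 (LGP2), a helicase that modulates both RIG-I and MDA5, lay below both scr libraries at 0.539 to 0.669 RPKM in knockdown, against 0.975 to 1.23 RPKM in scr (FDR = 0.112).

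The ADP-ribosylation genes lay together below the controls. PARP9 and DTX3L form a complex of an ADP-ribosyltransferase and a ubiquitin ligase that supports interferon signalling, and PARP14 is a related enzyme. The 3 genes are neighbours on chromosome 16. Dtx3l, on chr16:35926515-35939027, measured 5.60 RPKM in wt, 5.65 and 6.40 in scr, and 2.51, 2.34 and 3.00 in knockdown. The 3 control libraries were close to one another here, and the knockdown libraries were all below them. Its log2 fold change was −1.21 ± 0.181 (SE, n = 3 against 2, FDR = 0.0180), lost without knockdown 25-3 (FDR = 0.0838) or 50-2 (FDR = 0.0899). Parp9 measured 5.49 RPKM in wt, 5.10 and 5.89 in scr, and 2.19, 1.87 and 3.18 in knockdown. The pattern was that of Dtx3l and the log2 fold change of −1.19 ± 0.277 lay just outside the threshold (FDR = 0.0506). The ends of Parp9 and Dtx3l overlap by 558 bases on opposite strands. No source says whether strand was used in counting, so how reads there were counted is not known. Parp14 measured 3.46 RPKM in wt, 3.64 and 5.42 in scr, and 1.59, 1.67 and 2.83 in knockdown, again without overlap, with a log2 fold change of −1.16 ± 0.328 (FDR = 0.0758). Of the 3 genes 1 fell with edgeR and 2 did not pass, whereas DESeq2 called all 3 and limma called 2, beside 2308 and 1149 to 1196 of all 11647 genes. Lying below wt and both scr libraries, as these 3 did, was found for 19.7% of all genes.

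**Figure D3:**
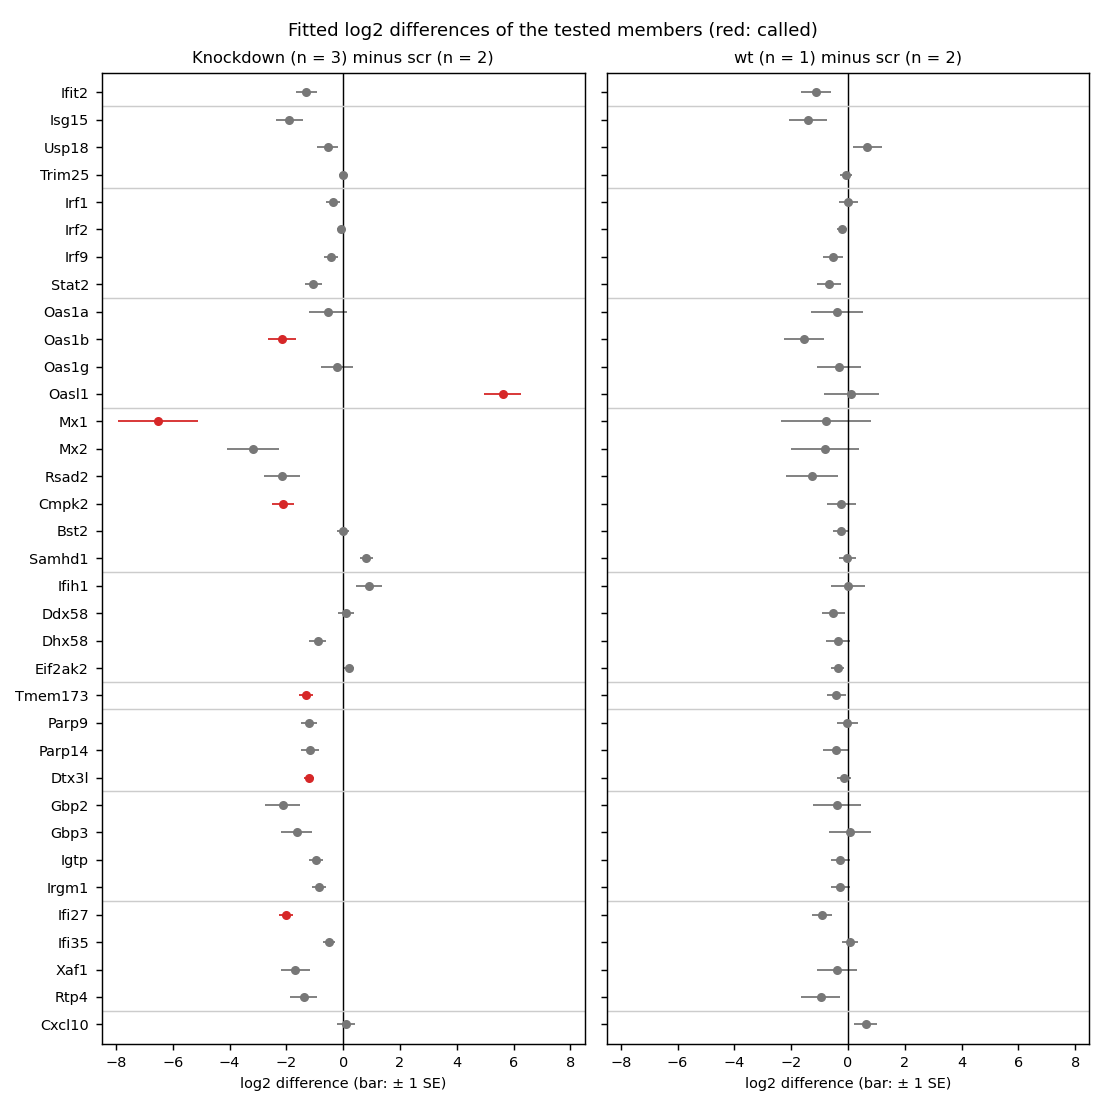
Fitted log2 difference (horizontal axis; bars are ± 1 SE) of each tested member (rows, grouped by role) for knockdown minus scr (left) and for wt minus scr (right), with called members in red. On the left 27 of 35 points lie below 0 and 7 are called; on the right 29 lie below 0 and none is called.

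The interferon-inducible GTPases, which attack the vacuoles and membranes that shelter microbes, were in all 4 cases lower in every knockdown library than in either scr library, as were 24.5% of all genes tested, but 0 of 4 passed with edgeR or limma, while all 4 had an unadjusted p under 0.05 in edgeR and all 4 were called by DESeq2. Over all 11647 genes tested, 31.4% had an unadjusted p under 0.05 in edgeR and DESeq2 called 2308. Irgm1, a regulator of the family, was the most abundant at 43.4 RPKM in wt, 65.5 and 37.9 in scr, and 31.2, 27.6 and 27.6 in knockdown, with a log2 fold change of −0.86 ± 0.245 (FDR = 0.0777). Gbp2 measured 1.55 RPKM in wt, 0.747 and 3.25 in scr, and 0.400, 0.542 and 0.431 in knockdown. Here scr 50-1 stood far above scr 25-2, which was the scr library nearer to knockdown, and the log2 fold change was −2.13 ± 0.618 (FDR = 0.0802). Gbp3 behaved alike, at 2.10 RPKM in wt, 0.893 and 3.06 in scr, and 0.588, 0.506 and 0.813 in knockdown, with a log2 fold change of −1.64 ± 0.550 (FDR = 0.110). Single scr libraries moved these values, to −0.71 for Gbp2 and −0.50 for Gbp3 without scr 50-1 and to −0.39 for Irgm1 without scr 25-2. Igtp ran from 1.65 to 1.93 RPKM in knockdown and from 3.17 to 3.90 RPKM in scr (FDR = 0.0601). The Irgm1 and Gbp2 promoters are among those shown above.

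Isg15 encodes the ubiquitin-like protein that is conjugated to viral and host proteins. It measured 0.964 RPKM in wt, 1.57 and 3.48 in scr, and 0.586, 0.573 and 0.879 in knockdown, from 14 to 75 reads per library. Knockdown lay below all other libraries, with a log2 fold change of −1.89 ± 0.476 that did not pass (FDR = 0.0598). Usp18, the protease that removes ISG15 and damps interferon receptor signalling, did not follow it. Its level was 45.8 RPKM in wt, 19.8 and 36.5 in scr, and 21.1, 25.1 and 11.9 in knockdown, so the groups overlapped and wt was the highest library (log2 fold change −0.55 ± 0.382, FDR = 0.374, and −0.91 to −0.04 with 1 library left out). Trim25, a ligase that activates RIG-I, stayed between 18.3 and 24.2 RPKM in all 6 libraries. Ifit2, which binds foreign RNA and was the sole IFIT member tested, measured 5.88 RPKM in wt, 17.6 and 7.55 in scr, and 5.50, 4.24 and 5.66 in knockdown. Of the members whose scr libraries differed by at least 2-fold, it is the one in which scr 25-2 was the higher, and its log2 fold change of −1.31 ± 0.368 did not pass with edgeR (FDR = 0.0759). It was −0.55 without scr 25-2 and −1.79 without scr 50-1, and that of Isg15 was −1.21 without scr 50-1. DESeq2 called Ifit2 (FDR = 0.0080) and Isg15 (FDR = 0.0491).

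Of the transcription factors, Stat2 was the one furthest from scr. It measured 4.96 RPKM in wt, 5.09 and 10.3 in scr, and 3.76, 4.07 and 3.44 in knockdown, with a log2 fold change of −1.05 ± 0.305 (FDR = 0.0807). The wt library and scr 25-2 were nearly level, and scr 50-1 was about double either, and without scr 50-1 the log2 fold change was −0.45. Stat2 overlaps Apof on the same strand by 753 bases, and Apof held 6 to 83 reads per library. Irf9, the DNA-binding partner of STAT2, lay between 2.66 and 2.88 RPKM in knockdown and between 3.01 and 4.45 RPKM in scr, with wt at 2.64 RPKM (FDR = 0.279). Irf1 and its antagonist Irf2 overlapped between groups, with log2 fold changes of −0.36 ± 0.246 and −0.09 ± 0.139. Of the 4 tested factors 0 passed with edgeR, while Stat2 had an unadjusted p under 0.05, as did 31.4% of all genes tested, and was called by DESeq2.

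Ifi27 encodes a small mitochondrial protein that interferon induces strongly. It measured 20.4 RPKM in wt, 29.5 and 45.7 in scr, and 8.62, 8.10 and 11.5 in knockdown. All knockdown libraries were below all 3 others, with a log2 fold change of −2.01 ± 0.258 (SE, n = 3 against 2, FDR = 0.0136). The call was lost without knockdown 25-3 (FDR = 0.0682) or 50-2 (FDR = 0.0763). Ifi27 lies wholly opposite Ifi27l2a, which overlaps it over 6057 bases and held 37 to 436 reads per library, highest in scr 50-1. Xaf1, known for opposing the apoptosis inhibitor XIAP, measured 1.06 RPKM in wt, 0.915 and 1.81 in scr, and 0.280, 0.334 and 0.651 in knockdown, below the 3 other libraries in each case (log2 fold change −1.69 ± 0.511, FDR = 0.0867, and −1.12 without scr 50-1). Rtp4 measured 0.878 RPKM in wt, 1.25 and 2.10 in scr, and 0.483, 0.453 and 0.980 in knockdown, where knockdown 50-5 lay above wt but below both scr libraries (log2 fold change −1.39 ± 0.483, FDR = 0.117). Ifi35 ran from 9.40 to 11.7 RPKM in knockdown and from 12.5 to 16.5 RPKM in scr (FDR = 0.174). Cxcl10, the chemokine of the list, ran from 4.20 to 8.51 RPKM over the 6 libraries with overlapping groups and a log2 fold change of 0.10 ± 0.312.

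The comparison of wt with scr asks for an effect of the vector, together with the selection and cloning that went with it. Called members numbered 0 of 35, beside 0% of all genes tested with edgeR, whose test at 1 library against 2 assumes that the lone wt library varies as the other groups do. At an unadjusted p under 0.05 there was 1 member, Ifi27, and there were 899 of all genes. Its log2 difference was −0.91 ± 0.362 (SE, FDR = 0.647). DESeq2 called 0 members and 128 of all genes. The median log2 difference of wt from scr was −0.36 over the members and −0.024 over all genes, with 29 of 35 members below 0 and 52.5% of all genes below 0. The 35 include 7 members over 1 RPKM only in scr, which entered this comparison through the group in which they were high. By level, wt lay between the scr libraries for 18 members (51.4%, against 37.3% of all genes), below both for 15 (42.9%, against 29.1%) and above both for 2 (5.71%, against 33.6%), Usp18 and Cxcl10. The fits of wt and of knockdown share the same scr libraries. Over the members the median log2 difference from wt was 0.035 for scr 25-2 and 0.52 for scr 50-1. The median absolute difference was 0.409 and 0.521 (0.271 and 0.342 over all genes), so for scr 25-2 members moved both ways.

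**Figure D4:**
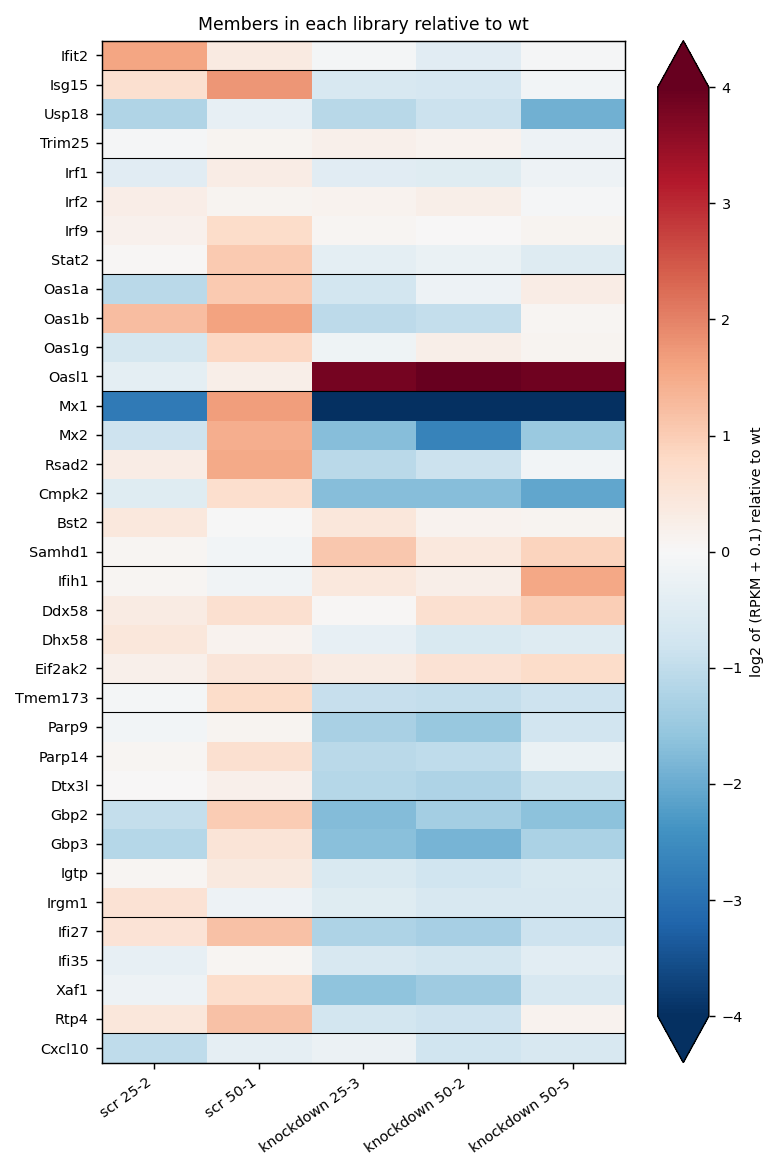
Log2 of RPKM + 0.1 relative to the wt library (colour; blue is lower and red higher) for each tested member (rows, grouped by role) in the 5 other libraries (columns). Values past the colour scale take its end colour. The scr 25-2 column has a median of 0.035 and scr 50-1 of 0.52, and the 3 knockdown columns have medians of −0.63, −0.72 and −0.28.

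Set against wt, the knockdown libraries had median log2 differences over the members of −0.63 (25-3), −0.72 (50-2) and −0.28 (50-5), as the colour map of libraries relative to wt shows. In 19 of 35 members (54.3%) all 3 knockdown libraries lay below wt and both scr libraries, beside 19.7% of all genes tested. Over the 23 members above 1 RPKM in a library of every group it was 11 (47.8%), beside 19.4% of such genes. In 3 of the 35 (8.57%), Oasl1, Samhd1 and Ifih1, all 3 lay above these controls, beside 20.1%. Irf9, Oas1b and Rtp4 lay below both scr libraries but not below wt.

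Other genes of the pathway, ligands, signalling genes and further induced genes, were examined from a list of 93 that are not members. Of these 71 were tested, 5 fell and 5 rose (7.04% each way, beside 5.25% falling and 5.33% rising among all genes tested), with a median log2 fold change of −0.13. Of 9 interferon ligands, including Ifnb1, Ifng and 3 Ifna genes, 0 reached the test, and their summed reads came to 1 in wt, 2 and 2 in scr, and 1, 0 and 5 in knockdown. Of these 9, 6 (Ifna1, Ifna2, Ifna4, Ifng, Ifnl2 and Ifnl3) had 0 reads in every library, which allows up to 3 reads each or 0.0906 to 0.117 CPM (counts scaled to library size). Of 30 receptors, transducers and regulators, 0 fell and 2 rose (6.67%, beside 5.33% of all genes) with edgeR, with a median of −0.037. An unadjusted p under 0.05 in edgeR was found for 7 of the 30, beside 31.4% of all genes tested. Jak1, the kinase shared by the receptors of all 3 interferon types, rose from 12.2 and 13.8 RPKM in scr (12.9 in wt) to 29.7, 25.5 and 34.8 in knockdown, a log2 fold change of 1.20 ± 0.181 (FDR = 0.0186). Irf5, a transcription factor of inflammatory genes, rose from 0.180 and 0.544 RPKM to 2.70, 2.56 and 3.47 (log2 fold change 3.00 ± 0.531, FDR = 0.0275), with wt at 1.64 RPKM, between the groups.

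Of 54 other interferon-induced genes outside the members, 41 were tested, 5 fell (12.2%, beside 5.25% of all genes) and 3 rose (7.32%, beside 5.33%). Ifitm3, which blocks fusion of virus with the endosome, fell from 318 and 557 RPKM in scr (345 in wt) to 177, 115 and 140 in knockdown, a log2 fold change of −1.61 ± 0.289 (FDR = 0.0282). The others that fell were the GTPases Iigp1 (log2 fold change −2.69, FDR = 0.0471) and Gbp7 (−1.43, FDR = 0.0445), the RNA-editing enzyme Adar (−0.78, FDR = 0.0381) and Slfn9 (−1.08, FDR = 0.0416). Slfn2, a schlafen family gene, rose from 2 and 8 reads in scr, and 3 in wt, to 751, 372 and 705 in knockdown (log2 fold change 6.72 ± 0.691, FDR = 0.0082). Mndal, of the family of interferon-inducible DNA-binding proteins, rose from 3.04 and 2.54 RPKM to 14.1, 13.7 and 26.9 (log2 fold change 2.70, FDR = 0.0175), and Parp12 rose by 0.89 (FDR = 0.0456). In the schlafen family Slfn9 fell and Slfn2 rose, and in the OAS family Oas1b fell and Oasl1 rose. Slfn2 and Oasl1 exceeded 1 RPKM only in knockdown and Oas1b only in scr, so these entered through the group in which they were high. The number of called pathway genes was 19 without scr 25-2, 8 without scr 50-1, 3 without knockdown 25-3, 1 without knockdown 50-2 and 2 without knockdown 50-5. None of the 5 falls was called without knockdown 50-2, without knockdown 50-5 or with a term for the label prefix 25 or 50, fits in which 1, 2 and 4 genes were called higher.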

How the data were processed

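RNA-seq libraries had been made from ribosome-depleted total RNA of Hepa1-6 cells. Per the labels and the submitters' processing notes, reads were demultiplexed with bcl2fastq 2.18.0.12, aligned to mm10 with TopHat2 and counted per gene with HTSeq 0.6.1p1, and the authors deposited these raw counts. The authors also deposited RPKM values, scaled with TMM library sizes, which were used here as levels. Whether the counting used strand is not stated. Rn45s, a ribosomal RNA gene, took 10.1% to 13.1% of the counts of each library. All 6 library columns were matched to samples by name.

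Counts were tested with edgeR 4.0.16 in R 4.3.3 (quasi-likelihood test, TMM, 1 fit of 6 libraries in 3 groups, biological coefficient of variation 0.272) over genes exceeding 1 RPKM in any library, with Benjamini-Hochberg adjustment over all of them. SE was taken as |log2 fold change| over √F. The procedure was tested on simulated data first. Alternatives used DESeq2 1.42.0, limma 3.58.1 on log2(RPKM + 0.1) and log2(RPKM + 1), other scalings and filters, a term for 25 or 50, wt joined to scr, the 4 libraries of the study's list, and each library left out. Members and lists were chosen with earlier results of these data known. Values in every library are given for called members, the 5 tested members of highest mean RPKM, and members with non-overlapping groups and an absolute log2 fold change of at least 1. Ifih1 was added after its values were seen. Pathway genes are named where called, and the ligands were added. One pathway gene is not reported here. Intervals and floors cover counting error only.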

Additional observations from a re-analysis of the deposited data

How the results depend on the processing

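The number of members called for knockdown against scr was 7, and it was 20 with DESeq2, 4 with the 4 libraries of the study's list and 0 to 18 with 1 library left out. Over the 23 members over 1 RPKM in a library of every group, a subset chosen after seeing the data, it was 4, with a median log2 fold change of −0.52. The called pathway genes outside the members numbered 10, and 21 with DESeq2, 2 with the 4 libraries, 4 with 25 or 50 as a term (none lower in either) and 1 to 19 with 1 library left out. Over all genes the 1233 calls became 2308 with DESeq2, 2271 without scr 25-2, 807 with 25 or 50 as a term, 346 with the 4 libraries and 335, 268 and 118 without knockdown 50-5, 25-3 and 50-2. The members' median log2 fold change of −0.96 became −0.68 by limma on log2(RPKM + 1), −0.86 with wt joined to scr, and −1.16 to −0.61 with 1 library left out. Bst2, whose fold change was near 0, turned below 0 without wt, scr 50-1 or knockdown 25-3, and ranged from −0.19 to 0.24 with 1 library left out. Of the 22 members with values given in every library by rule, no other changed direction under these alternatives. Among called members, Mx1 lost its call in 6 of 16 alternatives, Oas1b in 5, Cmpk2 and Tmem173 in 4 each, Dtx3l and Ifi27 in 2 each and Oasl1 in 1, while Parp9 gained one in 7. For wt against scr 0 members were called in every alternative run. The cause of these shifts was not tested. No paired analysis was possible because scr and knockdown share 1 number after the prefix (the 2 of scr 25-2 and knockdown 50-2), fewer than the 2 needed; the term for 25 or 50 given above groups libraries by that prefix and does not pair them.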
